A study of Mus musculus with 24 samples.

Results

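The node of Ranvier and the paranode were described here through 10 genes whose proteins build them, neurofascin (Nfasc), NrCAM (Nrcam), gliomedin (Gldn), contactin 1 (Cntn1), Caspr (Cntnap1), the contactin TAG-1 (Cntn2), Caspr2 (Cntnap2), ankyrin G (Ank3), beta-IV spectrin (Sptbn4) and protein 4.1B (Epb41l3). They were taken by gene name from the 24813 genes named on the array. The 10 genes had 33 probes, of which 28 were tested because some group had them clearly over background on each of its 3 arrays. Each gene was read through its brightest probe over the 24 arrays, which was tested in all 10 cases, and the other probes were used as a check. Epb41l3 is listed on the array under its older name Epb4.1l3. The members were named for their place at the node, at a point when earlier results of these data were known.

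RNA of C57BL/6 mice was hybridised to 24 arrays with 1 label, in 8 groups of 3 arrays. The groups are the efferent nerve fibres (EN, ventral root) and the afferent nerve fibres (AN, dorsal root) of segments L4-L6, each at P0, the day of birth, and at 1W, 3W and 5W, which are weeks after birth. None of the groups carries a mutation or a treatment, and all share strain and segments. Fibres of several animals were pooled for each group, so the p values measure the spread between pools. In a bulk sample, fewer cells of a type and less RNA per cell cannot be told apart. The study asked which genes differ between the motor and sensory fibres as they mature.

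At the node, the gap between neighbouring stretches of myelin, the action potential is regenerated. Gliomedin is secreted by the Schwann cell, the myelin-forming cell of peripheral nerve, and binds neurofascin and NrCAM, which gather sodium channels. Ankyrin G and beta-IV spectrin anchor these to the axon's cytoskeleton. At the paranode beside it, the loops of the Schwann cell hold on to the axon through glial neurofascin, contactin 1 and Caspr, with protein 4.1B beneath. At the juxtaparanode, TAG-1 and Caspr2 hold potassium channels. The RNA of axonal proteins is made in the cell bodies of motor neurons in the spinal cord and of sensory neurons in the dorsal root ganglion.

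Promoters are shown for 4 of the members that moved together, Nfasc with Gldn and Cntn2 with Cntnap2. Windows of 300 bases, from 250 bases before to 50 after a start site, were available from RefSeq (GRCm38.p6) for 8 of the 10 members, with 17 windows in all. Capitals mark either the GC box GGGCGG or the EGR core GNGTGGGNG, on either strand, and all else is in lower case. The lines read from 5′ to 3′ on the strand of the gene. The windows are chr9:54286236-54286535 (plus strand) for Gldn, chr1:132707277-132707576 (minus strand) for Nfasc, chr1:132542891-132543190 (minus strand) for Cntn2 and chr6:45059811-45060110 (plus strand) for Cntnap2.
Gldn: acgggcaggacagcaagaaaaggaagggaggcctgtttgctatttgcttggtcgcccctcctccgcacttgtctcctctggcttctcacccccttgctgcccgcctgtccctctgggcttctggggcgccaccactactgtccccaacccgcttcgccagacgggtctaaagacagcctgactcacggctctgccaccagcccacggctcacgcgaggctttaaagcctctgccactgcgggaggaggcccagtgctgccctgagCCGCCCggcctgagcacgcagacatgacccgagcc
Nfasc: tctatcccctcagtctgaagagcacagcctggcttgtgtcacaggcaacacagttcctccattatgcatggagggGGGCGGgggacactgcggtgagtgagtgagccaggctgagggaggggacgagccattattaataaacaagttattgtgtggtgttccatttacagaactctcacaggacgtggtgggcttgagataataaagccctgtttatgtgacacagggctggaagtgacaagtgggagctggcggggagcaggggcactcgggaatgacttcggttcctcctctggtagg
Cntn2: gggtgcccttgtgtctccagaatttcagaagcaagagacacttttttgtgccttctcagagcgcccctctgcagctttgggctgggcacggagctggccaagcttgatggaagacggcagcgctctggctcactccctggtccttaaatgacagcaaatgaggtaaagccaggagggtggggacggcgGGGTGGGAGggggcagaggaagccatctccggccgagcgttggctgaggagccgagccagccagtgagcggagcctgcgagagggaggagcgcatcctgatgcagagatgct
Cntnap2: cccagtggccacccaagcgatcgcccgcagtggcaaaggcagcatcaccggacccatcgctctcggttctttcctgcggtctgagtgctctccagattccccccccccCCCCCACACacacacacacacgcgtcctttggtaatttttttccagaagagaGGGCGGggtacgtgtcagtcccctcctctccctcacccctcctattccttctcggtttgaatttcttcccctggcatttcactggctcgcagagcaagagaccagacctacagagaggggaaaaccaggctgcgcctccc

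Nfasc and Cntnap2 each have 1 more window, which holds none of the motifs and is not printed. Over the 24 arrays, Cntn1 moved more closely with Cntnap2 (r = 0.97) than Cntn2 did (r = 0.93). The windows of Cntn1 hold none of the motifs and are not printed either. The GC box was found in the windows of Gldn, Nfasc and Cntnap2 above, and in 10 of the 17 windows of members. Of all 32851 promoter windows, 35.7% held it. The EGR core, the letters bound by Egr2 and its relatives, was found in the windows of Cntn2 and Cntnap2 and in 4 of the 17, against 14.3% of all windows. The SOX core ACAAAG, searched on both strands, was found in 0 of the 17 windows and in 18.7% of all. The 2 motifs that were found overlap each other in no window above. These matches describe letters only.

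The values below are the deposited log2 values, which were normalized so that arrays can be compared. They order the groups for 1 probe and do not compare one gene with another. A difference was called when its Benjamini-Hochberg adjusted p, from limma over all 36398 tested probes, was below 0.05 and its fold change was above 2. Groups were fitted together, with 16 residual degrees of freedom. How many of all probes had groups without overlap was not counted, so a lack of overlap is given as a description only. An EN array and an AN array of the same age and number share a slide and deviated together. Ages do not share slides evenly, since the 3W arrays lie on 1 slide with 1 array of each fibre at 5W. The AN array of replicate 3 at 3W stood apart. The summed level of 8 markers of sensory neuron cell bodies was 17.83 in log2 units on it and 12.49 and 12.92 on the others of its group. Results that rest on this array are given with and without it. The groups share 1 estimate of the spread. Leaving the array out therefore also moves the p of comparisons that do not include it, but not their differences.

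Nfasc and Gldn were higher at every later age than at birth, in both nerve fibres. At P0, Nfasc stood at 12.37, 11.52 and 11.70 in EN and at 11.24, 10.33 and 10.50 in AN. At 1W it stood at 14.22, 14.33 and 13.65 in EN and at 14.00, 13.79 and 13.39 in AN. No later array of either fibre reached down to those of P0. At 3W the EN arrays read 14.53, 14.60 and 14.69 and the AN arrays 14.42, 14.48 and 13.89, and at 5W they read 14.61, 14.49 and 14.36 against 14.74, 14.63 and 14.60. In EN the log2 change from P0 to 1W, to 3W and to 5W was 2.21 ± 0.25 (SE), 2.74 and 2.63, with adjusted p of 5.98e-06, 6.23e-08 and 7.79e-08 by limma. In AN it was 3.04 ± 0.25, 3.58 and 3.97, with adjusted p of 1.44e-07, 2.48e-09 and 3.41e-10. No further step was called, since those from 1W to 3W (0.53 in EN, adjusted p 0.122) and from 3W to 5W (-0.12 in EN, 0.39 in AN) did not pass. Within slides the rise to 1W was 1.85 and 2.04 in EN and 2.77 and 2.98 in AN.

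Gldn, the Schwann cell's ligand for neurofascin, followed the same course. At P0 its EN arrays read 13.18, 12.83 and 12.97 and its AN arrays 11.95, 10.81 and 11.70. At 1W they read 14.59, 14.66 and 14.52 in EN and 14.30, 14.40 and 14.17 in AN. At 3W they read 14.73, 14.69 and 14.70 in EN and 14.51, 14.49 and 13.84 in AN. At 5W they read 14.68, 14.52 and 14.66 in EN and 14.49, 14.19 and 14.51 in AN, so the level of 1W and that of 5W lay in the same range. The rise from P0 to 1W was 1.60 ± 0.22 in EN (adjusted p 4.29e-05, limma) and 2.80 ± 0.22 in AN (adjusted p 8.62e-08). At 5W it was 1.63 in EN and 2.91 in AN, with adjusted p of 5.34e-06 and 3.3e-09.

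**Figure D1:**
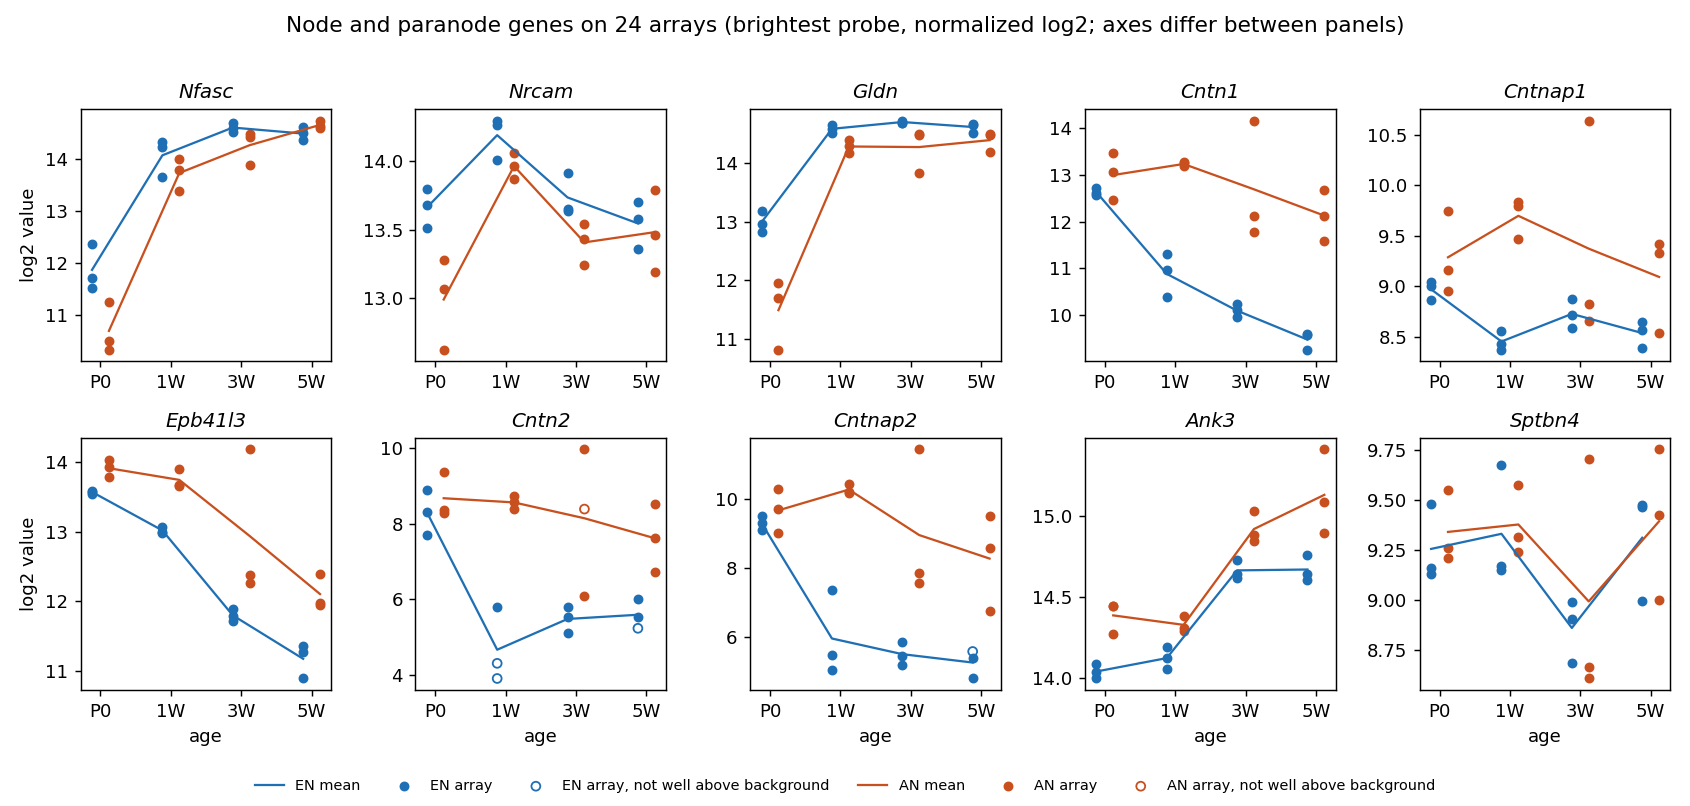
Deposited log2 value of each member by age, with 1 point per array (open where not counted as well above background), lines through the group means, EN in blue and AN in orange. The open AN point of Cntn2 at 3W, at 8.38, lies over that array's lowest value well above background. Nfasc and Gldn climb between P0 and 1W in both fibres, while Cntn1, Cntn2 and Cntnap2 drop in EN and lie higher in AN at the later ages. The AN array of 3W that lies above the others of its group in Cntn1, Cntnap2 and Epb41l3 is replicate 3.

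Nrcam, the other partner of gliomedin, moved little. Its EN arrays read 13.79, 13.51 and 13.68 at P0 and 14.27, 14.30 and 14.01 at 1W. Its AN arrays read 13.28, 12.62 and 13.07 at P0 and 13.97, 14.06 and 13.87 at 1W. The groups of P0 and 1W did not overlap in either fibre, which held for 8 of the 10 members in EN and 3 in AN. The difference was 0.53 ± 0.17 in EN (adjusted p 0.0281, limma) and 0.97 ± 0.17 in AN (adjusted p 0.000481), neither above the fold limit. The AN fold of 1.97 lies just under that limit and passed it when P0_AN replicate 1 (1.12), P0_AN replicate 3 (1.01) or 1W_AN replicate 3 (1.02) was left out. By 5W the difference from P0 was -0.12 in EN and 0.49 in AN.

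Ank3 and Sptbn4, the scaffold of the node, were not called in any comparison on their brightest probes. On its second probe, Sptbn4 was called lower in EN at 5W than at P0 (-1.82, adjusted p 0.00944, limma). That probe was well above background on 24 arrays. Its means were 9.55 in AN and 8.20 in EN at 1W, and 9.63 (SD 1.28) and 7.81 (SD 0.57) at 5W. Ank3 read 14.00, 14.09 and 14.04 in EN at P0 and 14.64, 14.76 and 14.60 at 5W. In AN it read 14.44, 14.44 and 14.27 at P0 and 15.08, 15.41 and 14.89 at 5W. The groups of the 2 ages did not overlap, which held for 8 of the 10 members in EN and 4 in AN. The differences of 0.63 ± 0.11 in EN and 0.74 ± 0.11 in AN had adjusted p of 0.000122 and 2.18e-05 in limma at a fold below the limit. Sptbn4 differed from P0 by 0.06 ± 0.25 at 5W in EN (adjusted p 0.868) and by 0.05 ± 0.25 in AN (adjusted p 0.878). Its 24 values ran from 8.61 to 9.75.

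Contactin 1 fell in the efferent fibres. In EN it read 12.61, 12.56 and 12.72 at P0, 10.38, 10.97 and 11.30 at 1W, 10.23, 10.10 and 9.96 at 3W and 9.26, 9.60 and 9.57 at 5W. No value of an age reached the next age's range. Against P0 the 3 later ages lay at -1.75 ± 0.43, -2.54 and -3.15, with adjusted p of 0.00551, 7.75e-05 and 6.06e-06 by limma. In AN it read 13.06, 13.46 and 12.47 at P0, 13.25, 13.19 and 13.27 at 1W, 12.13, 11.78 and 14.16 at 3W and 12.12, 12.68 and 11.59 at 5W. The AN ages overlapped with P0, and their differences from P0 were 0.24 at 1W, -0.31 at 3W (adjusted p 0.575) and -0.87 at 5W (adjusted p 0.101). The 3W difference was -1.04 (adjusted p 0.00735), and called, without 3W_AN replicate 3.

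Cntn2 and Cntnap2, the partners at the juxtaparanode, fell in EN as well. Cntnap2 in EN read 9.10, 9.29 and 9.50 at P0, 5.03, 5.47 and 7.36 at 1W, 5.45, 5.19 and 5.86 at 3W and 4.79, 5.58 and 5.40 at 5W. Every EN array after birth lay below every one of P0, with the array of replicate 3 above the others at 1W. Against P0 the 3 later ages lay at -3.35 ± 0.81, -3.80 and -4.04, with adjusted p of 0.00479, 0.000656 and 0.000343 by limma. At 5W the probe was well above background on 2 of the 3 EN arrays. In AN, Cntnap2 read 9.71, 10.29 and 9.01 at P0, 10.17, 10.44 and 10.20 at 1W, 7.56, 7.86 and 11.44 at 3W and 8.57, 9.49 and 6.75 at 5W. None of the AN differences from P0 was called (0.60, -0.72 and -1.40, the last with adjusted p 0.158). The later 2 were called without 3W_AN replicate 3, with -1.96 at 3W (adjusted p 0.0171) and -1.40 at 5W (adjusted p 0.0499). The value at 5W was unchanged, since that comparison does not include the array.

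Cntn2 in EN read 7.71, 8.31 and 8.89 at P0, 3.91, 4.31 and 5.79 at 1W, 5.81, 5.11 and 5.52 at 3W and 5.54, 6.00 and 5.23 at 5W. It was well above background on 1 EN array at 1W, 3 at 3W and 2 at 5W. The arrays of all 3 later ages lay below those of P0, and the change was -3.63 ± 0.70 at 1W, -2.82 at 3W and -2.71 at 5W (adjusted p 0.000881, 0.00229 and 0.00298, limma). In AN it read 8.28, 9.35 and 8.37 at P0, 8.39, 8.56 and 8.73 at 1W, 8.38, 6.08 and 9.96 at 3W, and 7.61, 8.51 and 6.71 at 5W. The 8.38 was not counted as well above background, although it lies over that array's lowest value that was (4.68). P0 and 5W overlapped, with a difference of -1.06 ± 0.70 (adjusted p 0.219).

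Since the 3W arrays share no slide with P0, the 3W change has no value within a slide. With the slide as a block, the EN change at 3W was -1.82 for Cntn2 (adjusted p 0.154) and -2.63 for Cntnap2 (adjusted p 0.0984), and neither was called. With the scan date as a block the values were -1.74 (adjusted p 0.143) and -2.66 (adjusted p 0.0722). At 1W and 5W values within slides exist. On slide 1 and slide 3 the EN change to 1W was -3.80 and -2.81 for Cntn2 and -4.07 and -2.04 for Cntnap2, and on slide 3 the change to 5W was -2.60 and -3.82.

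Epb41l3, which ties the paranodal complex to the cytoskeleton, fell in both fibres by 5W. In EN it read 13.58, 13.59 and 13.55 at P0, 12.99, 13.01 and 13.07 at 1W, 11.72, 11.90 and 11.79 at 3W and 11.36, 10.89 and 11.28 at 5W. Each age lay below the one before it, with no overlap. The change from P0 was -0.55 ± 0.32 at 1W (not called, adjusted p 0.215), -1.77 at 3W (adjusted p 0.00014) and -2.40 at 5W (adjusted p 4.56e-06). The step from 1W to 3W of -1.22 (adjusted p 0.00849) was called by limma, and it was -1.24 (adjusted p 0.0996) with the slide and -1.18 (adjusted p 0.106) with the scan date as a block, not called. In AN it read 13.93, 14.03 and 13.79 at P0, 13.68, 13.90 and 13.67 at 1W, 12.26, 12.38 and 14.19 at 3W and 12.40, 11.94 and 11.98 at 5W. The AN change was -1.81 ± 0.32 at 5W (adjusted p 0.00011) and -0.98 ± 0.32 at 3W (adjusted p 0.016, fold below the limit). Without 3W_AN replicate 3 the change at 3W was -1.60 (adjusted p 1.68e-07) and was called, and without P0_AN replicate 3 it was -1.04 (adjusted p 0.0282), also called.

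Cntnap1, the partner of contactin 1 at the paranode, was called in no change with age on its brightest probe. Its second probe was called higher in EN at 3W than at P0 (1.02, adjusted p 0.0186, limma), where the brightest gave -0.24. In EN it read 8.86, 9.04 and 9.00 at P0 and 8.57, 8.39 and 8.65 at 5W, a difference of -0.43 ± 0.36 (adjusted p 0.324). In AN it read 9.16, 9.74 and 8.95 at P0 and 9.32, 9.41 and 8.53 at 5W.

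**Figure D2:**
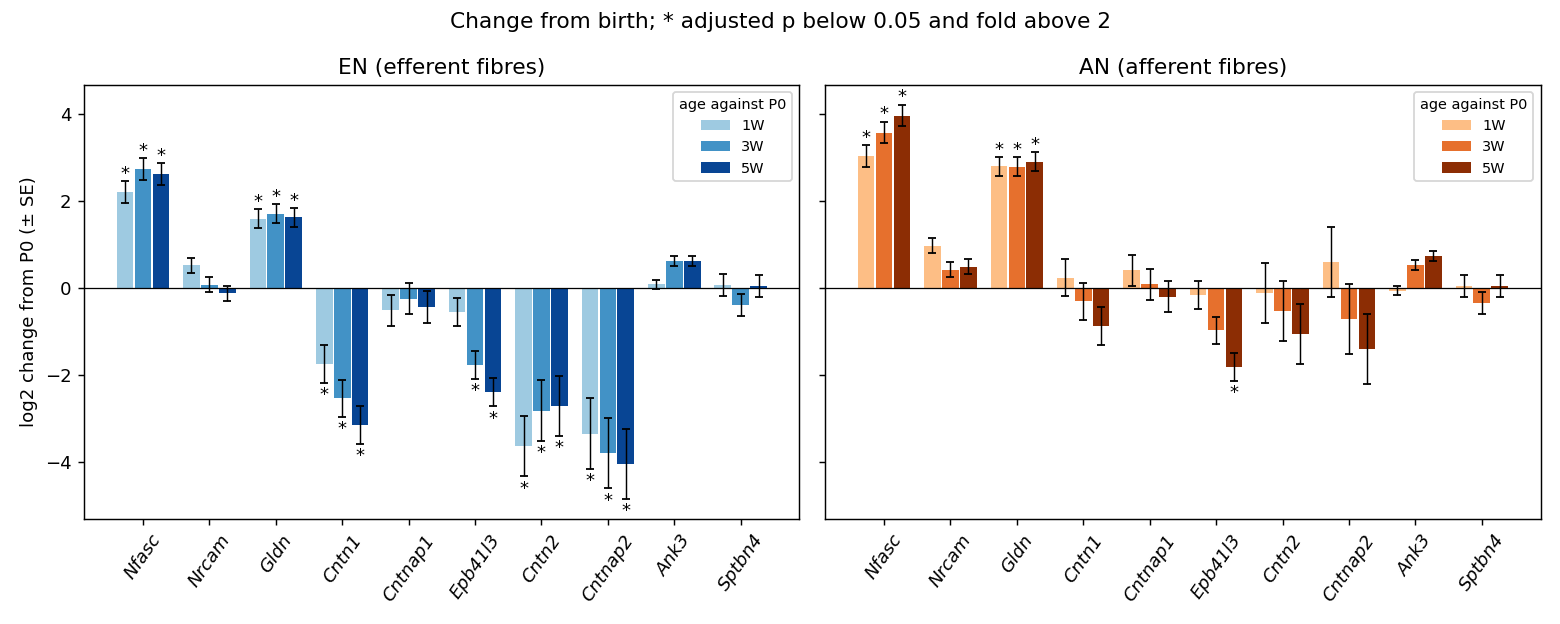
Log2 change since P0 of each member, EN and AN in separate panels and the later ages in shades, drawn as bars with error bars of 1 SE from limma on 3 arrays a group, and an asterisk over called changes. Nfasc and Gldn lie above 0 in both panels, and the called changes below 0 belong to Cntn1, Cntn2, Cntnap2 and Epb41l3.

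Counted over the 10 members, 2 rose and 3 fell in EN at 1W, where 11.9% of all tested probes were called. At 3W, 2 rose and 4 fell against 30.5% of all probes, and at 5W again 2 rose and 4 fell against 29.9%. In AN, 2 rose at 1W (8.58% of all probes called) and at 3W (27.8%), and 2 rose and 1 fell at 5W (27.8%). The share of members called in AN was near the background at 3W and 5W. Without 3W_AN replicate 3, 5 members were called in AN at 3W, against 30.2% of all probes, and 4 at 5W, against 28.4%. The 5W comparison does not include that array, and its differences were unchanged. The median change over the members was -0.27 in EN and -0.07 in AN at 5W, beside 0.04 and 0.03 over all tested probes.

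Between successive ages after 1W, 1 member was called in EN from 1W to 3W (Epb41l3, 11.7% of all probes called). From 3W to 5W in EN, 0 were called by limma (1.12% of all probes), and 0 passed an unadjusted p below 0.05, which 16.8% of all probes did. In AN, 0 were called from 1W to 3W (12.6% of all probes) and 4 passed the unadjusted p (40.7%). From 3W to 5W in AN, 0 were called (1.68%) and 1 passed the unadjusted p (19.1%). Without 3W_AN replicate 3, the AN step from 1W to 3W held 3 called members, all lower at 3W, namely Cntn1 (-1.28), Cntnap2 (-2.56) and Epb41l3 (-1.43), against 15.7% of all probes.

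At birth, Gldn and Nfasc were lower in AN than in EN. In the 3 pairs of arrays, the AN value minus the EN value was -1.23, -2.02 and -1.27 log2 units for Gldn and -1.13, -1.19 and -1.20 for Nfasc. All AN arrays lay below all EN arrays for both genes. The AN minus EN difference was -1.51 ± 0.22 for Gldn (adjusted p 0.00307, limma) and -1.18 ± 0.25 for Nfasc (adjusted p 0.0332), both called, where 0.327% of all tested probes were called at P0. Nrcam differed by -0.67 ± 0.17 (adjusted p 0.086), with no overlap and no call. In the same pairs, Ank3 was higher in AN by 0.44, 0.35 and 0.24 and Epb41l3 by 0.35, 0.44 and 0.24, without a call. The call of Nfasc was lost when P0_AN replicate 2 or 3, or P0_EN replicate 1 or 3, was left out (-1.26 to -0.92, adjusted p 0.0798 to 0.206), and with the spread taken from the 6 arrays of P0 alone the adjusted p was 0.402 for Nfasc and 0.278 for Gldn. After birth neither gene differed by a called amount between the fibres, with differences of -0.34 and -0.30 at 1W for Nfasc and Gldn and of 0.17 and -0.23 at 5W.

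Of 9 markers of myelinating Schwann cells, 3 were also lower in AN at P0, namely Mbp, Drp2 and Pmp2, where 0.327% of all probes were called. The summed log2 level of the 9 ran from 18.95 to 19.29 in AN and from 19.53 to 19.63 in EN. By 5W the sum ran from 20.22 to 20.34 in AN and from 20.15 to 20.25 in EN. From P0 to 5W, 6 of the 9 had risen in AN and 3 in EN, where 27.8% and 29.9% of all probes were called in either direction. Over the 24 arrays, which share fibre, age and slide, the summed level followed Nfasc with r = 0.975 and Gldn with r = 0.967. Taken as deviations from the group means, the r was 0.540 for Nfasc and 0.680 for Gldn. The part of the number or state of these cells in the levels of Nfasc and Gldn was not tested.

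After birth, Cntn1, Cntn2 and Cntnap2 were higher in AN than in EN at 1W. Cntnap2 was higher by 5.14, 4.97 and 2.85 log2 units in the 3 pairs, Cntn1 by 2.87, 2.22 and 1.97 and Cntn2 by 2.94 in the pair of replicate 3. In the other pairs of Cntn2 the EN array was not well above background. The groups did not overlap for these 3 genes, and this held for 7 of the 10 members in all. The differences of 4.32 ± 0.81 for Cntnap2, 3.89 ± 0.70 for Cntn2 and 2.35 ± 0.43 for Cntn1 had adjusted p of 0.00565, 0.00481 and 0.0052 by limma, and these 3 members were the ones called, where 2.79% of all tested probes were. On its second, dimmer probe, well above background on 3 EN and 2 AN arrays at 1W, Cntn2 differed by 0.12 (adjusted p 0.92, limma). Cntnap1 differed by 1.24 ± 0.36 (adjusted p 0.0615), was higher in AN in 3 of 3 pairs (1.27, 1.43 and 1.04), and was called with the pair of AN and EN arrays as a block (adjusted p 0.0364) and without 3W_AN replicate 3 (adjusted p 0.000827). The 1W comparison does not include that 3W array. Its omission left the difference unchanged and moved the shared estimate of the spread.

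At 3W, 4 members were called higher in AN, where 3.12% of all probes were called. They were Cntn1 (2.60, adjusted p 0.00126), Cntnap2 (3.45, adjusted p 0.0155), Cntn2 (2.66, adjusted p 0.0292) and Epb41l3 (1.14, adjusted p 0.0414). The pair of replicate 3 exceeded the others, as for Cntnap2 with 2.11, 2.68 and 5.58 and for Epb41l3 with 0.54, 0.48 and 2.40. Of these, Cntn1 alone was called without 3W_AN replicate 3 (1.86, against 1.89% of all probes), and Cntnap2 stood at 2.21 (adjusted p 0.0685), Cntn2 at 1.75 (adjusted p 0.158) and Epb41l3 at 0.52 (adjusted p 0.0656). The calls of Cntnap2 and Epb41l3 were also lost without 3W_EN replicate 1 or 2, those of Epb41l3 and Cntn2 without 3W_EN replicate 3, and that of Cntn2 without 3W_AN replicate 1 and 3W_EN replicates 1 and 2, at differences of 2.47 to 2.82 (Cntn2), 3.30 and 3.43 (Cntnap2) and no more than 1.19 (Epb41l3), with adjusted p of 0.0562 to 0.128. With the spread of the 6 arrays of 3W alone, the adjusted p of Cntn1 was 0.0773.

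At 5W, Cntn1 was higher in AN by 2.86, 3.08 and 2.02 and Cntnap2 by 3.78, 3.92 and 1.35 in the 3 pairs. Both were called (2.65 ± 0.43, adjusted p 0.000831, and 3.02 ± 0.81, adjusted p 0.0289), where 3.32% of all probes were. With the spread of the 6 arrays of 5W alone, neither was called (adjusted p 0.0592 and 0.172). Cntnap2 lost its call without any of 5W_AN replicates 1 and 2 and 5W_EN replicates 1, 2 and 3 (2.41 to 3.18, adjusted p 0.056 to 0.154). Cntn2 differed by 2.02 ± 0.70 (adjusted p 0.0939) and was called with the pair as a block (adjusted p 0.0280) and without 3W_AN replicate 3 (adjusted p 0.0325). The 5W comparison does not include that 3W array, and the difference was unchanged without it. Ank3 was higher in AN in 3 of 3 pairs (0.44, 0.65 and 0.29), with a difference of 0.46 ± 0.11 (adjusted p 0.0176) at a fold of 1.38, below the limit. Epb41l3 was higher in AN in 3 of 3 pairs as well (1.04, 1.05 and 0.70), with a difference of 0.93 ± 0.32 (adjusted p 0.0918) and no call. Both Ank3 and Epb41l3 were also higher in AN in every pair of P0, 1W and 3W.

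**Figure D3:**
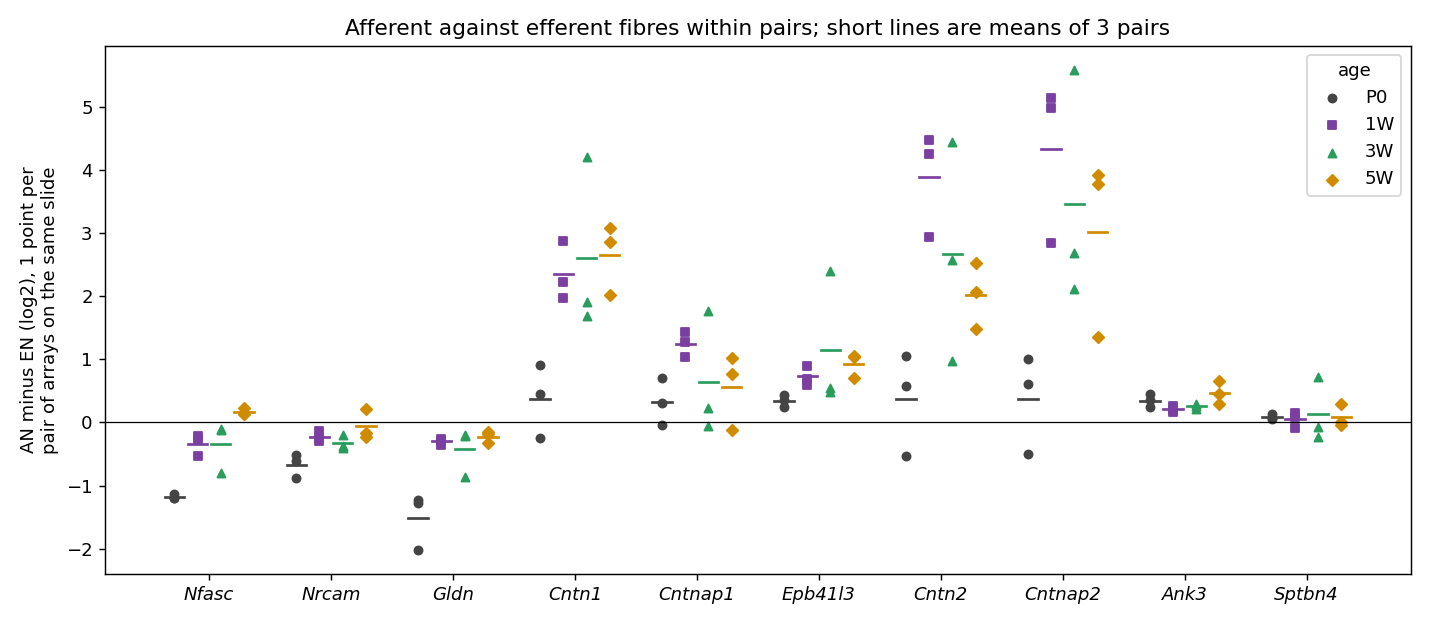
AN minus EN difference in log2 units for each member and age, with 1 point for each of the 3 pairs of arrays that share a slide, short lines at the means and a line at 0. Nfasc and Gldn lie below 0 at P0, Cntn1, Cntn2 and Cntnap2 lie above 0 in all 3 pairs at 1W, 3W and 5W, and the pair of replicate 3 at 3W lies apart in Cntnap2 and Epb41l3.

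Whether the fibres changed differently since birth was tested by subtracting the AN minus EN difference at P0 from that at a later age. In limma 0 members were called at 1W (0.0632% of all probes), 0 at 3W (0.525%) and 0 at 5W (0.931%). At an unadjusted p below 0.05, 5 members passed at each age, where 7.06%, 9.19% and 10.8% of all probes passed. The values at 1W were 3.95 ± 1.14 for Cntnap2 (adjusted p 0.264), 3.52 ± 0.98 for Cntn2 (adjusted p 0.256), 1.99 ± 0.61 for Cntn1 (adjusted p 0.292) and 1.20 ± 0.31 for Gldn (adjusted p 0.22). At 5W they were 1.34 ± 0.36 for Nfasc (adjusted p 0.0797), 1.28 ± 0.31 for Gldn (adjusted p 0.0522) and 2.29 ± 0.61 for Cntn1 (adjusted p 0.0827).

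With the pair of AN and EN arrays as a block, Nfasc (adjusted p 0.00429) and Gldn (adjusted p 0.0131) were called at 5W, and so was Gldn at 3W (1.08, adjusted p 0.0327). Without 3W_AN replicate 3, 4 members were called at 1W, where 1.55% of all probes were, namely Gldn (adjusted p 0.0353), Cntn1 (adjusted p 0.0121), Cntn2 (adjusted p 0.0316) and Cntnap2 (adjusted p 0.0193). At 5W the same omission left 2 called, Gldn (adjusted p 0.0252) and Cntn1 (adjusted p 0.00428), against 1.32% of all probes. The tests at 1W and 5W do not include that array. Their differences were unchanged, and only the shared estimate of the spread moved. The SE of Cntnap2 at 1W fell to 0.815. Nfasc (1.62, adjusted p 0.022) and Gldn (1.51, adjusted p 0.0156) at 5W were called without P0_AN replicate 1, Cntn1 at 5W without 5W_AN replicate 3 (2.56, adjusted p 0.0465), and Cntn1 at 3W without 3W_AN replicate 2 (2.68, adjusted p 0.0493).

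Markers of neuronal cell bodies moved with the contactins. The summed log2 level of 8 markers of sensory neuron cell bodies lay between 14.89 and 15.65 on the EN arrays of P0. On the later EN arrays it lay between 10.46 and 12.06 (1W), 10.56 and 11.31 (3W), and 10.98 and 11.61 (5W). On the AN arrays its lowest and highest values were 15.01 and 16.69 for P0, 16.16 and 16.50 for 1W, 12.49 and 17.83 for 3W, and 10.77 and 14.65 for 5W. The EN arrays of birth therefore carried these markers at about the level of the AN arrays, and later EN arrays did not. All 8 fell in EN from P0 to 1W, where 11.9% of all probes were called in either direction. All 8 were higher in AN than in EN at 1W, while 2 were at 3W and 1 at 5W (2.79%, 3.12% and 3.32% of all probes called, in either direction). Without 3W_AN replicate 3, 0 were at 3W and the median difference was 1.72 in place of 3.53. Of 7 markers of neurons in general, 5 fell in EN from P0 to 1W and 5 were higher in AN at 1W, and of 4 markers of motor neurons these were 2 and 1.

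Over the 24 arrays, which share fibres, ages and slides, this summed level followed Cntnap2 with r = 0.961, Cntn1 with 0.913, Cntn2 with 0.911, Cntnap1 with 0.859 and Epb41l3 with 0.818. Taken as deviations from the group means, the r was 0.908 for Cntnap2, 0.886 for Cntn1, 0.906 for Cntnap1, 0.827 for Epb41l3 and 0.781 for Cntn2. Leaving out 3W_AN replicate 3, these were 0.797, 0.697, 0.746, 0.461 and 0.613. For the markers of neurons in general, the r of these deviations was 0.914 for Cntnap2, 0.924 for Cntn1, 0.936 for Cntnap1, 0.831 for Epb41l3 and 0.835 for Cntn2. The summed level of 4 markers of motor neurons followed Cntnap2 with r = 0.910, Cntn2 with 0.880 and Cntn1 with 0.870 over the 24 arrays. At 1W this sum was higher in AN, the dorsal root (11.97 to 12.67), than in EN (8.34 to 9.73). Of its 4 genes, 1 was called there, and their median difference was 0.28. For Nfasc and Gldn the r over 24 arrays was -0.599 and -0.605. Epb41l3 also followed the summed level of 8 markers of immature and non-myelinating Schwann cells (r = 0.932), and Cntn1 did so with 0.860. Taken as deviations from the group means, these were 0.525 for Epb41l3 and 0.196 for Cntn1. Leaving out 3W_AN replicate 3, they were 0.613 and -0.145. The part of neuronal cell bodies, or of these Schwann cells, in the levels of the contactins, Cntnap1, Cntnap2 and Epb41l3 was not tested.

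**Figure D4:**
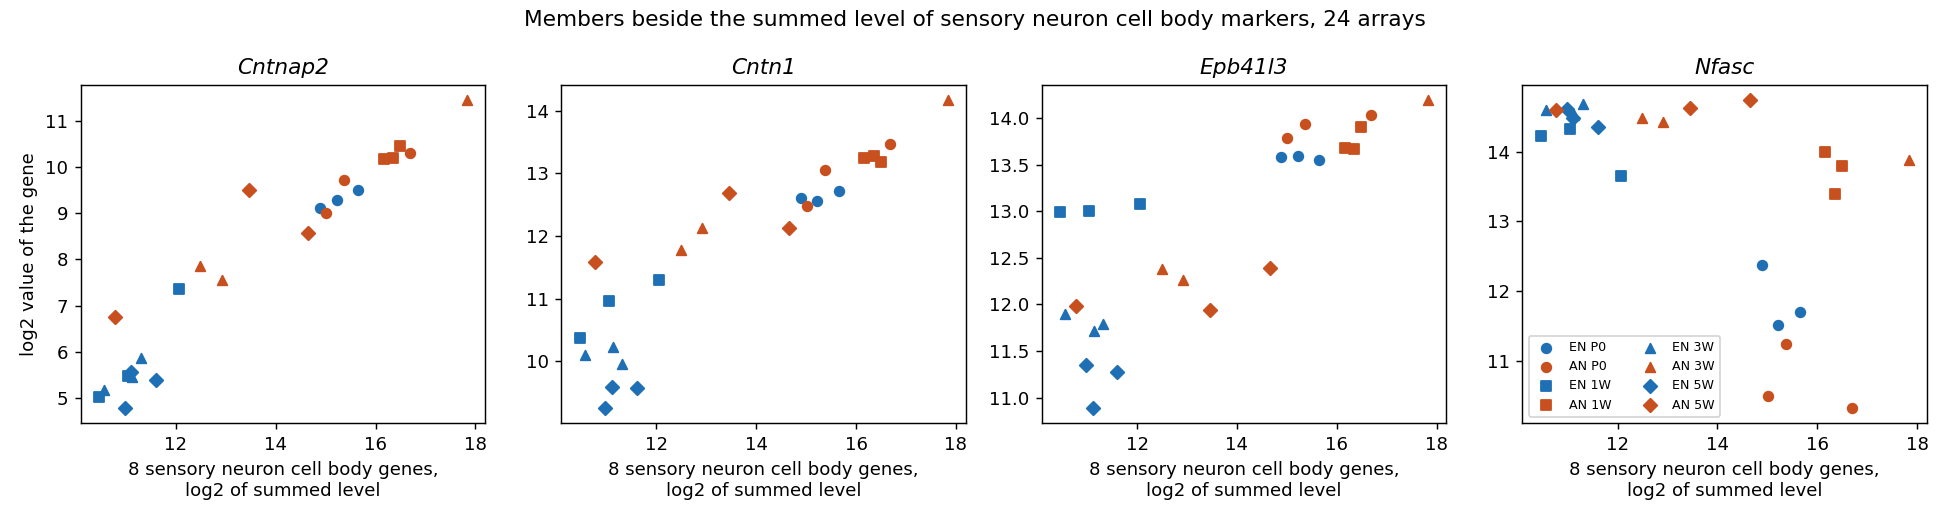
Log2 value of Cntnap2, Cntn1, Epb41l3 and Nfasc against the summed log2 level of 8 markers of sensory neuron cell bodies, with 1 point per array (24 arrays) and the groups in separate marks. Cntnap2 and Cntn1 climb with the marker level (r = 0.961 and 0.913) and 3W_AN replicate 3 has the highest marker level at 17.83.

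The members fell into sets that ran alike. Over the 24 arrays Nfasc and Gldn had r = 0.96, Cntn1 and Cntnap2 0.97, Cntn2 and Cntnap2 0.93, and Cntn1 and Cntn2 0.89, while Cntnap1 had 0.83 with Cntnap2. Nrcam had 0.66 with Gldn, and the highest r of Ank3 and of Sptbn4 with any other member was 0.54 and 0.45. These r values describe arrays that share ages and fibres. Among 17714 genes outside the set, the one most like Nfasc was Ndrg1 (r = 0.990), a gene mutated in a demyelinating neuropathy. Gldn was most like Gpr37l1 (0.983) and then Elovl6 (0.981), an enzyme that lengthens fatty acids.

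Cntnap2 was most like Rbfox3 (r = 0.995), the gene of the neuronal nuclear antigen NeuN, followed by Rab3c (0.993) and Tac1 (0.991), the precursor of substance P and a member of the marker list above. Cntn1 was most like Scg3 (0.982), a protein of secretory granules, and Cntn2 like Eef1a2 (0.958), a translation elongation factor of neurons and muscle, and then Rnf208 (0.951). Cntnap1 was most like Lynx1 (0.964), Epb41l3 like Coro2b (0.982), Ank3 like Bbs1 (0.940) and Sptbn4 like Pacsin1 (0.882). These are descriptions over the same 24 arrays.

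Probes of the same gene did not always move alike. In 18 pairs of a brightest probe and another tested probe, the within-array difference was compared between P0 and 5W by a two-sided exact permutation test within each fibre (400 arrangements), and 6 pairs differed at a Benjamini-Hochberg adjusted p below 0.05. In 2 of these, of Epb41l3 and Ank3, the dimmer probe was well above background on 0 EN arrays at 5W, and no change is given for it as a value. The change from P0 to 5W of Nfasc, averaged over both fibres, was 3.30 on its brightest probe and 3.76 on its second, but 0.97 and 0.22 on the other tested probes (adjusted exact permutation p 0.03 for both of these and 0.045 for the second). The brightest and second probes lie at chr1:134466568-134466627 and chr1:134467012-134467071 in the mm9 build, and the dimmest lies at chr1:134479626-134479685, all on the minus strand and all annotated to the same transcript. The probes with 0.97 and 0.22 were well above background on 21 and 19 of 24 arrays. At P0, each of these 2 was so on 1 of 3 EN arrays and 2 of 3 AN arrays. Their starting levels therefore lie near the limit of detection.

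Epb41l3 had a dimmer probe that fell at least 13.3-fold in EN from P0 to 3W and at least 11.9-fold to 5W, since no EN array of these ages was well above background there. On the same average of the log2 change from P0 to 5W, Cntn2 stood at -1.88 on its brightest probe and at -0.51 on its second (adjusted exact permutation p 0.045), and the second probe gave no called change in EN (-0.23 at 1W, -0.64 at 3W and -0.81 at 5W) and no called difference between the fibres at 1W (0.12, adjusted p 0.92 in limma). The probes of Cntn1 stood at -2.01 and -2.20. The second probe of Cntnap2 was well above background on 0 EN arrays after birth, and fell at least 3.49-fold in EN by 5W. For Cntnap1 (-0.31 against 0.59, adjusted exact permutation p 0.0514) and Sptbn4 (0.05 against -0.96, adjusted exact permutation p 0.135) the probes pointed in opposite directions without passing the test.

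**Figure D5:**
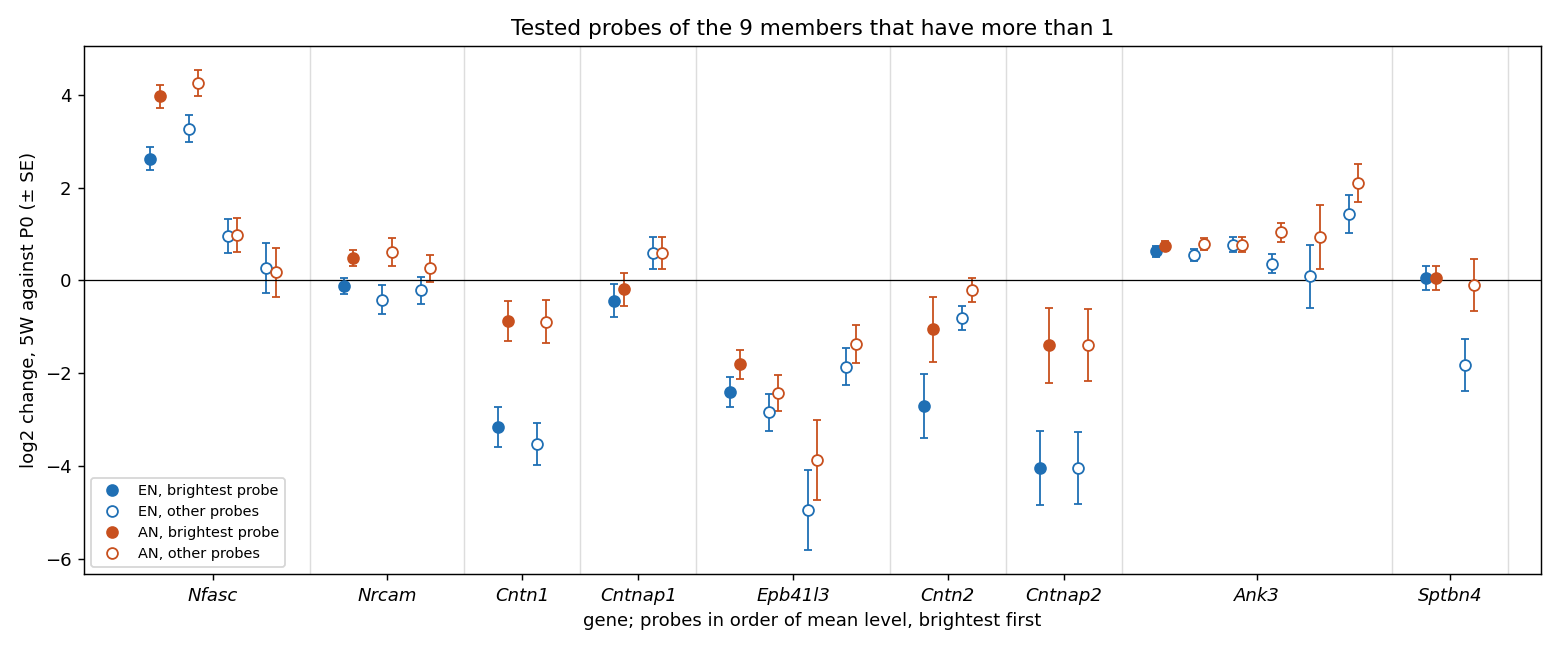
Log2 change from P0 to 5W with 1 SE from limma, in EN and in AN, for every tested probe of the 9 members that have more than 1, brightest probe first and filled. The first 2 probes of Nfasc lie at 2.63 and 3.27 in EN while its others lie at 0.95 and 0.27, and the lowest probe of Epb41l3 was not well above background in EN at 5W, so that its EN point is no measured fold. At P0, each of those other Nfasc probes was well above background on 1 of 3 EN arrays.

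Other genes of the node, paranode and juxtaparanode were counted from fixed lists of 1 probe per gene. Of 11 genes of nodal channels 10 were tested (all but Kcnq3), of Schwann cell microvilli 8 of 8, of nodal matrix 6 of 6, of spectrins, ankyrins and 4.1 proteins 8 of 8, of the juxtaparanode 8 of 9 (all but Kcnab2) and of the relatives of contactins and Caspr 6 of 10. The last list also holds Chl1, which is a relative of neurofascin and NrCAM. Of the nodal channels, 1 rose and 2 fell in EN from P0 to 5W, with a median change of -0.14 beside 0.04 over all probes, and 1 rose and 0 fell in AN. Of all probes, 29.9% were called in EN and 27.8% in AN at 5W, and the shares of the lists below stand beside the same background. Scn3b, a beta subunit of the sodium channel, was the one that rose, by 1.33 ± 0.16 in EN (adjusted p 1.89e-06, limma) and 1.22 in AN (adjusted p 5.37e-06). Scn1a, a sodium channel, was among those that fell in EN (-3.47, adjusted p 0.00122). Scn8a, the main sodium channel of the mature node, was not called, with -0.57 ± 0.21 in AN (adjusted p 0.0296) and 0.02 in EN at 5W. At 1W, 4 of the 10 channels were higher in AN than in EN, where 2.79% of all probes were called. Among them were Scn4b (4.01), Scn1a (2.98) and Scn2b (1.52), with adjusted p of 0.00572, 0.0405 and 0.0256 by limma.

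In the nodal matrix, 1 of 6 rose and 3 fell in EN at 5W, and 1 rose and 1 fell in AN (29.9% and 27.8% of all probes called). Hapln2, a link protein of hyaluronan, rose by 2.40 ± 0.41 in EN (adjusted p 7.35e-05, limma) and 4.30 ± 0.41 in AN (adjusted p 7.44e-08). Ncan fell by 5.50 in EN (adjusted p 1.5e-09), with -3.46 in AN (adjusted p 6.04e-07). Of 8 markers of oligodendrocytes, 2 rose and 3 fell in EN from P0 to 5W. At 5W, 3 of these markers were higher and 0 lower in AN than in EN, where 3.32% of all probes were called. The part of these cells in the levels of the matrix genes was not tested. Of the microvillar genes, Ezr fell in EN (-1.87, adjusted p 1.67e-09) and AN (-1.97, adjusted p 8.07e-10) at 5W, and Utrn rose in AN by 1.62 (adjusted p 8.45e-08), while 7 of 8 were not called in EN. The median of this list was 0.25 in EN and 0.44 in AN, beside 0.04 and 0.03 over all probes.

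Of the spectrins, ankyrins and 4.1 proteins, 1 rose and 2 fell in EN at 5W and 1 rose in AN, of 8 and against the same 29.9% and 27.8%. Epb41l2, a relative of Epb41l3, rose by 1.16 ± 0.11 in EN (adjusted p 1.04e-07, limma) and 1.34 in AN (adjusted p 1.59e-08), against -2.40 and -1.81 for Epb41l3. Of the juxtaparanodal genes, 1 rose and 2 fell in EN and 3 rose in AN at 5W, of 8, which lies near that background. The potassium channels Kcna1 and Kcna2, which Caspr2 and TAG-1 gather, gave 1.03 ± 0.23 (adjusted p 0.000946) and 0.32 ± 0.30 (adjusted p 0.387) in EN and 2.58 (adjusted p 3.21e-08) and 1.73 (adjusted p 9.47e-05) in AN, beside -4.04 for Cntnap2 in EN. Of the list of relatives of contactins and Caspr, with Chl1 included, 0 rose and 3 fell in EN at 5W, and 1 fell in AN. Cntnap4 fell in EN (-5.26, adjusted p 1.13e-05) and in AN (-3.09, adjusted p 0.00223), and Cntn4 in EN (-2.71, adjusted p 0.00272). These counts stand in lists chosen for their place at the node and say nothing of other genes.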

How the data were processed

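Expression was measured on 24 Agilent 8 x 60K mouse arrays with 1 Cyanine-3 labelled sample each. The authors extracted spot intensity with Feature Extraction 10.7.1.1 and deposited it per array, along with 1 table of log2 values of 56743 probes, quantile normalized in GeneSpring according to the methods. All values in the text are from this log2 table, and the deposited intensity served to mark spots well above background and as an alternative. A probe with all its spots on an array flagged as outliers was counted there as not well above background. Every column of the table matched its own array (r 0.996 to 1.00 over the probes) and no column was left unmapped. The median signal ran from 45.4 to 191, and the number of arrays limits the precision.

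Gene probes came from the files' gene names, with accessions and older names read through a RefSeq gene table. Tested were 36398 of 56605 gene probes, those clearly over background on each of the 3 arrays in some group. Group means were fitted with limma 3.58.1 in R 4.3.3 over 24 arrays in 8 groups (16 residual degrees of freedom). Calls needed a Benjamini-Hochberg adjusted p below 0.05 and a fold above 2. These are the thresholds of the study's methods, which do not say whether p was adjusted. Named genes were the 10 members by their brightest probe, their 3 most similar genes, and list genes called in most comparisons or bearing on a member. Some genes that this rule names are not reported here. The members and lists were chosen with earlier results of these data known. Alternatives covered scaling, filters, blocks, weights, probes, thresholds and left-out arrays. The script was tested on simulated data. AN and EN arrays of the same age and number share a slide, and their deviations from the group means correlated with r from 0.107 to 0.647 in 12 of 12 pairs, against -0.468 to 0.116 for other numbers, so the number was taken to pair AN with EN within an age but not across ages. A lower bound on a fold was used where the dimmer group had 0 arrays above background, as the brighter group's mean against, per array, the higher of the lowest signal well above background and the probe's own value. Probe positions are in mm9, as in the file headers.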

Additional observations from a re-analysis of the deposited data

Results flagged for a closer look

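Of the other genes listed for the node, paranode and juxtaparanode, 2 differed between the fibres in their change since birth by the test of that difference. Kcna1, a potassium channel of the juxtaparanode, rose by 1.54 ± 0.33 log2 units more in AN than in EN between P0 and 5W (adjusted p 0.0246, limma), from 13.48 to 16.06 in AN and from 14.21 to 15.25 in EN. Chl1, a relative of neurofascin and NrCAM, had an AN minus EN difference that was larger at 5W than at P0 by 1.75 ± 0.38 (adjusted p 0.0280), with means of 12.33 at P0 and 10.47 at 5W in EN and of 12.89 and 12.78 in AN. No member gene met the same call. Among the cell type markers, the same test was passed at 3W by L1cam (1.66 log2 units higher in AN minus EN than at P0, adjusted p 0.0119), Ncam1 (1.24, adjusted p 0.00473) and Cdh5 (lower, adjusted p 0.00731), and at 5W by Sox2 (1.19, adjusted p 0.0215) and Ncam1 (1.48, adjusted p 0.000829).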

How the results depend on the processing

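For the counts of members called, an array was left out only of comparisons that include it, except 3W_AN replicate 3, which was left out of all. The EN changes from P0 held at 5 (1W), 6 (3W) and 6 (5W) whichever of these arrays was left out. Leaving out 1 array gave 2 to 3 for AN at 1W, 2 to 5 at 3W and 3 to 4 at 5W against P0, 1 for EN and 0 to 3 for AN from 1W to 3W, and 0 in both fibres from 3W to 5W. For AN against EN it gave 1 to 2 at P0, 3 to 4 at 1W, 1 to 4 at 3W and 1 to 3 at 5W, and for the change of that difference 0 to 4 at 1W, 0 to 1 at 3W and 0 to 2 at 5W. The count for AN against EN at 5W was 1 without 5W_AN replicate 1 or 2 or 5W_EN replicate 1, 2 or 3, and that at 3W was 1 without 3W_EN replicate 1 or 2 and 2 without 3W_EN replicate 3.

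Scaling the scanner signal to the 75th percentile, or testing all gene probes without a filter, gave 1 for AN against EN at P0. The normexp background gave 1 for AN against EN at 5W and 1 for its change since P0 at 5W. Testing only probes above background on all 24 arrays, which leaves 8 members, gave 1 at 1W, 2 at 3W and 1 at 5W for AN against EN, 3 for EN at 1W against P0 and 1 for the change of the difference at 5W. Fitting only the arrays of the groups compared gave 0 at P0, 0 at 3W and 0 at 5W for AN against EN and 3 for the change of the difference at 1W.

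The replicate number as a block gave 2 for the change of the AN minus EN difference at 5W and no other change beyond 1.5 times. The pair of AN and EN as a replicate block gave 1 at 3W and 2 at 5W for it. The slide and the scan date as blocks each gave 2 at 5W for it and 0 for EN from 1W to 3W. Array weights gave 4 for AN at 3W against P0, 2 for EN and 3 for AN from 1W to 3W, and 4, 2 and 2 for the change of the difference at 1W, 3W and 5W. Leaving out AN replicates 3 at 3W and 5W gave 2 for AN against EN at 3W, 5 for AN at 3W against P0 and 3 for AN from 1W to 3W. It gave 4 at 1W and 3 at 5W for the change of the difference. This omission and the block by pair were chosen after seeing the data. So was leaving 3W_AN replicate 3 out of comparisons that do not include it.

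The mean over a gene's probes gave 1 for AN against EN at P0, 2 at 3W and 1 for AN from 1W to 3W. The next brightest probe gave 1 at P0, 2 at 3W, 2 for EN and 1 for AN from 1W to 3W. On that probe Cntnap1 stood at 1.02 (adjusted p 0.0186) in EN at 3W against P0 and Sptbn4 at -1.82 (adjusted p 0.00944) in EN at 5W, opposite in sign to -0.24 and 0.06 on the brightest. An unadjusted p with the fold limit gave 4, 4 and 4 for the change of the difference at 1W, 3W and 5W. An adjusted p at any fold gave 5 for AN at 3W and 5 at 5W against P0, and 2 for EN and 2 for AN from 1W to 3W. The cause of these shifts was not tested. Levels of Cntn2 and Cntnap2 in EN after birth lie near the limit of detection.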
